A study of Rattus norvegicus with 24 samples.

Results

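The miR-29 family was measured in INS1 cells, insulin-secreting rat insulinoma cells that stand in for the pancreatic β-cell. Its 3p arms are the 3 miRs that the array files list under the names rno-miR-29a-3p, rno-miR-29b-3p and rno-miR-29c-3p, and they were taken by name, whatever their signal, out of 758 rat miRs on the array. The cells received no treatment (Ctrl), 150 pg/ml IL-1β with 0.1 ng/ml IFN-γ (Cyt), 125 nM Givinostat without cytokines (Giv_Ctrl), or 125 nM Givinostat followed 1 h later by the same cytokines (Giv_Cyt). Givinostat is a broad inhibitor of lysine deacetylases (KDACs). RNA was taken after 6 h or 24 h, which gave 8 groups of 3 arrays and 24 arrays in all. All of them came from 1 tumour line. The depositors' description of the design calls the replicates technical. Whether the 3 arrays of a group came from separate cultures is not settled by the labels. A p-value here therefore measures the spread between these arrays, which may be technical.

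A mature miR guides a silencing complex to messenger RNAs that pair with its seed, a short stretch near its 5′ end, and the targets are then degraded or translated less. The miR-29 family is known for repressing collagens and other matrix genes, the DNA methyltransferases Dnmt3a and Dnmt3b, and the anti-apoptotic gene Mcl1. In β-cells it is known to repress the monocarboxylate transporter Slc16a1, which this cell type keeps silent, and the transcription factor Onecut2. Target genes were not measured on these arrays.

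The mature sequences are shown with the seed, bases 2 to 8 from the 5′ end, in capitals, because the members share it. They were read from RefSeq (GRCr8), where all 3 names were found.
rno-miR-29a-3p: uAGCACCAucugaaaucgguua
rno-miR-29b-3p: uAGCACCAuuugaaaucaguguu
rno-miR-29c-3p: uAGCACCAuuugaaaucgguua
No other mature rat miR in that table carried this seed. Counted from the 5′ end, miR-29a-3p and miR-29c-3p differ by 1 base in 22 (C10U), so 95.5% of their bases are identical. miR-29c-3p and miR-29b-3p differ by 3 bases (G18A, U21G and A22U) and by 1 additional base at the 3′ end of miR-29b-3p.

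The 3 mature miRs come from 4 hairpins in 2 clusters. Mir29a lies at chr4:60617955-60618042 and Mir29b1 at chr4:60618334-60618414, both on the minus strand and 291 bases apart. Mir29b2 lies at chr13:109098831-109098911 and Mir29c at chr13:109099359-109099446, both on the plus strand and 447 bases apart. The 2 hairpins that yield miR-29b-3p are shown with its sequence in capitals, because the mature product is the same in both while the rest of the hairpin is not.
Mir29b1: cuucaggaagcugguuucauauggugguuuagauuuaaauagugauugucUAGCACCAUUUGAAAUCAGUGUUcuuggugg
Mir29b2: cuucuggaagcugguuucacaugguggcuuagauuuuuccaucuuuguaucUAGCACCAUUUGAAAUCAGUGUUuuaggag
The array therefore could not separate miR-29b-3p made from the chromosome 4 cluster from that made from the chromosome 13 cluster. The positions are on GRCr8, while the array's own annotation of the probes is on rn4.

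Each member was read by 16 spots, 8 of each of 2 probes that end at the same base of the miR and differ by 1 base in length. The longer probe of each member is shown 5′ to 3′ as deposited, with capitals where it does not pair with its nearest relative in the family, because this is what separates the members on the array.
miR-29a-3p against miR-29c-3p: taaccgatttcaGatggtgc
miR-29b-3p against miR-29c-3p: AACacTgatttcaaatggtgct
miR-29c-3p against miR-29a-3p: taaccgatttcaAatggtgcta
The probes of miR-29a-3p and miR-29c-3p thus differ from the other miR by 1 base within 20 and 22 bases, and those of miR-29b-3p by 4 bases from miR-29c-3p. How much of one member's RNA bound to another member's probe was not tested.

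All 3 members were well above background on all 24 arrays, on 16 of 16 spots, and no miR spot was saturated. Detection required that the scanner software had marked 8 or more of the 16 spots as well above background. By this rule 168 of the 758 miRs were detected on every array of 1 or more groups, and 129 to 211 miRs were detected per array. The β-cell miRs miR-375-3p and miR-7a-5p were detected on all 24 arrays, whereas the liver miR-122-5p, the muscle miR-133a-3p and the blood cell miRs miR-142-3p, miR-223-3p and miR-451-5p were detected on 0 arrays. The muscle miRs miR-206-3p and miR-1-3p were detected on 24 and 3 arrays, and the neuronal miR-124-3p and miR-9a-5p on 21 and 1. Of these markers, miR-375-3p was called lower with cytokines in the 24 h average over Givinostat (log2FC -0.27, adjusted p = 0.0433, limma) and had a log2FC of -0.30 in 24h_Cyt against 24h_Ctrl (adjusted p = 0.128), while miR-7a-5p had 0.098 and 0.21 (adjusted p = 0.219 and 0.106). Of the 7 liver, muscle and blood cell markers 0 were called higher and 1 lower in 24h_Cyt, miR-223-3p (-0.24, adjusted p = 0.0172), which was not above background on any array. The part of these marker changes in the members' difference was not tested. Brightness differed between groups: taking the 117 miRs detected on every array, the 75th percentile of their intensity after background subtraction had a median of 742 in 24h_Cyt (596 to 1003), 542 in 24h_Giv_Cyt (487 to 571), 435 in 24h_Giv_Ctrl (303 to 452) and 347 in 24h_Ctrl (271 to 347). The arrays lay on 4 slides. The 24h_Cyt arrays lay on slides 1 and 2 and the 24h_Ctrl arrays on slide 4, so these groups shared no slide.

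After 24 h of cytokines without Givinostat, the signals of all 3 members rose. Values are log2 signals, averaged on each array over the 16 spots after quantile normalization, and log2FC is the difference between group means on this scale. In 24h_Ctrl the log2 signal of miR-29b-3p was 9.33, 9.26 and 9.64 on replicates 1, 2 and 3. In 24h_Cyt it was 10.51, 10.38 and 10.46. The lowest cytokine array lay above the highest control array, and the cytokine arrays lay closer together than the controls. The log2FC was 1.04 (SE 0.16), which is 2.06-fold, with an adjusted p of 0.000538 from limma with Benjamini-Hochberg adjustment over the 758 miRs.

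For miR-29a-3p, encoded next to Mir29b1, the log2 signal was 9.14, 9.09 and 9.40 in 24h_Ctrl. It was 9.97, 9.999 and 9.94 in 24h_Cyt. The groups did not overlap, and the log2FC was 0.76 (SE 0.15, 1.69-fold, adjusted p = 0.00514, limma). For miR-29c-3p, encoded next to Mir29b2, the log2 signal was 8.42, 8.25 and 8.49 in 24h_Ctrl and 9.11, 9.15 and 9.03 in 24h_Cyt. Again the groups did not overlap, and the log2FC was 0.71 (SE 0.18, 1.64-fold, adjusted p = 0.0283, limma). A call required a log2FC beyond 0.1375 in either direction together with an adjusted p under 0.05, and 3 of 3 members were called. miR-29c-3p lost its call without replicate 1 or replicate 2 of 24h_Ctrl (0.73 and 0.64) or of 24h_Cyt (0.70 and 0.68), with adjusted p between 0.0715 and 0.102.

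Among all 758 miRs, 30 (3.96%) were called in this comparison and 20 (2.64%) were called and higher. In 125 of the 758 miRs (16.5%), all cytokine arrays lay above all control arrays, as they did for the 3 members. Among the 132 miRs detected on all arrays of both groups, miR-29b-3p was at place 1 by log2FC, miR-29a-3p at place 3 and miR-29c-3p at place 4, and the median log2FC of these miRs was -0.050. Detected miRs missing from the controls, such as miR-146a-5p, have only a lower bound and were not ranked. The plot of the signals by group shows every array behind these values.

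**Figure D1:**
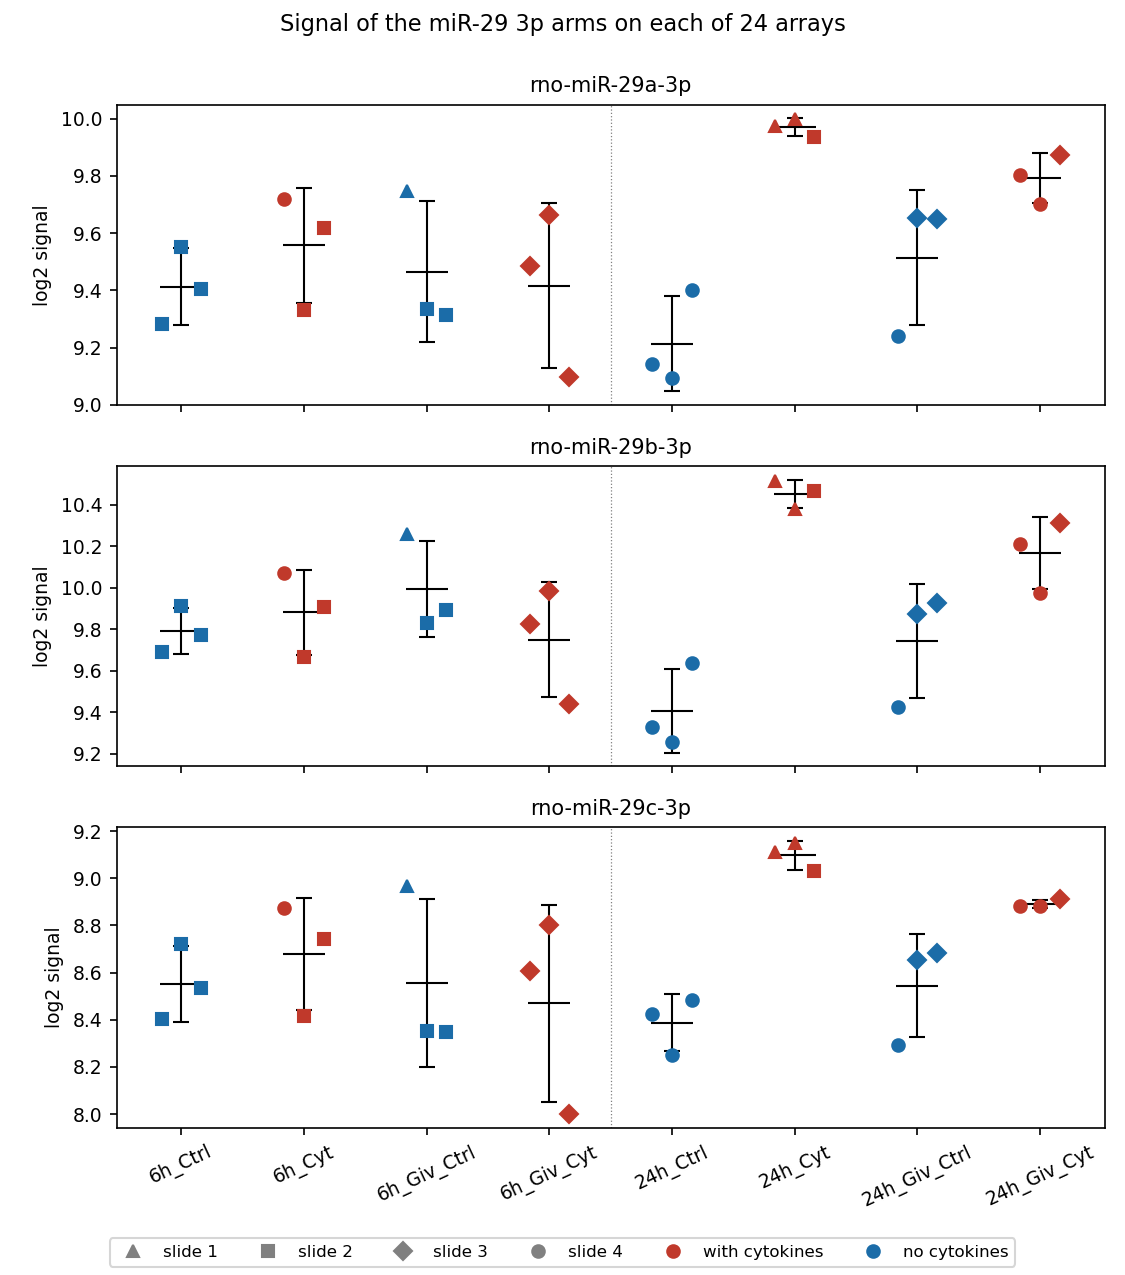
Log2 signal (vertical axis) of each member in the 8 groups (horizontal axis), with 1 point per array, the shape of the point giving its slide, red points for arrays with cytokines and blue points for arrays without, and black lines for the group mean and SD (n = 3). For miR-29b-3p the 24h_Cyt arrays sit between 10.38 and 10.51, above all 24h_Ctrl arrays (9.26 to 9.64), and the slide 1 array of 6h_Giv_Ctrl, at 10.26, sits above the other 2 arrays of its group.

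Both probes of each member gave this difference. With the longer probe alone the log2FC was 0.79, 0.98 and 0.72 for miR-29a-3p, miR-29b-3p and miR-29c-3p, and with the shorter probe alone 0.72, 1.104 and 0.70. All 6 values were called (adjusted p from 0.000168 to 0.0292, limma). Over the 24 arrays the signals of the longer and the shorter probe of a member correlated with r between 0.928 and 0.991, which is a description, since the probes share each array's RNA and normalization.

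Slide and brightness moved with the cytokine groups. With slide as a fixed block the log2FC of miR-29a-3p, miR-29b-3p and miR-29c-3p was 0.84, 1.20 and 0.77 and none was called (adjusted p = 0.350, 0.159 and 0.555, limma), and 1 miR of 758 was called. Without slide 1, which was scanned on a day of its own and whose removal leaves 1 array in 24h_Cyt whose spread is taken to be that of the other groups, it was 0.72, 1.06 and 0.64 and none was called (adjusted p = 0.189, 0.0535 and 0.325). With array brightness as a covariate it was 0.34, 0.62 and 0.15 and none was called (adjusted p = 0.446, 0.216 and 0.773, limma), while 3 of 758 miRs were. All of these differences kept their sign. Slide 1 also held a single array of 6h_Giv_Ctrl, without cytokines and with a brightness of 682 against 401 and 311 for the rest of its group. Its signals of the members lay above those other 2 arrays by 0.42, 0.40 and 0.62, where the median of the detected miRs was 0.14. The part of slide and brightness in the cytokine difference was not tested beyond these values.

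Left without normalization between arrays, the log2FC was 1.90, 2.13 and 1.91 for miR-29a-3p, miR-29b-3p and miR-29c-3p, while the median of the detected miRs moved to 0.70. Relative to miR-103-3p with miR-423, which are used as qRT-PCR references, it was 1.53, 1.76 and 1.54 with a detected median of 0.33, and relative to let-7c-5p, another such reference, 1.29, 1.51 and 1.30 with a detected median of 0.088. Without normalization the members lay above the median of the detected miRs by 1.20 to 1.43. A reference takes the same value from every miR of an array, so this gap could not change with either reference. It is therefore no separate support. miR-423-3p was detected on 0 arrays and miR-423-5p on 1, so the pair of references rests on miR-103-3p for detected signal, and let-7c-5p was itself called lower in 24h_Cyt (log2FC -0.38, adjusted p = 0.0452, limma). The plot of the cytokine difference under each processing sets these values side by side.

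**Figure D2:**
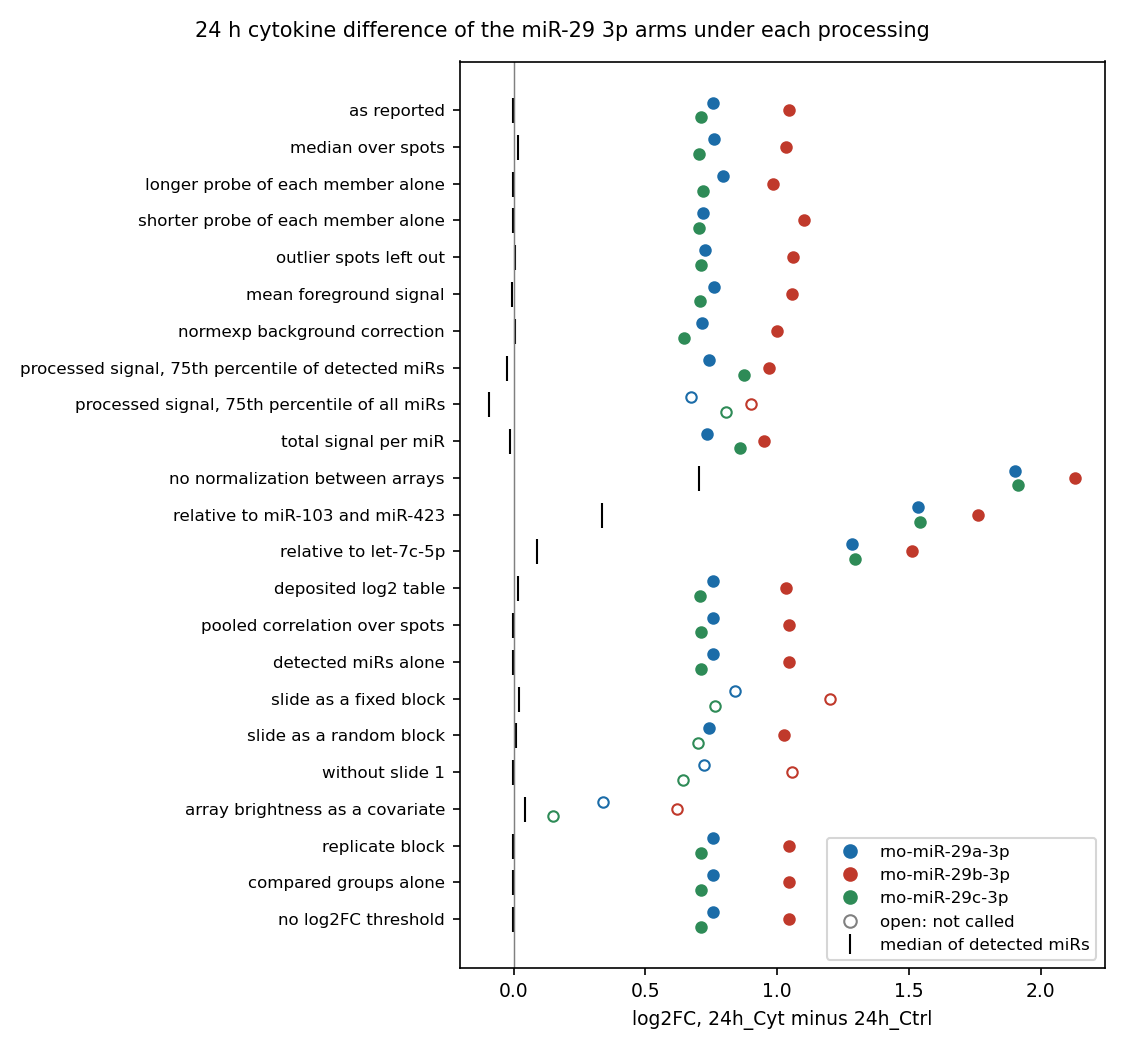
Log2FC of 24h_Cyt against 24h_Ctrl (horizontal axis) of each member under each way of processing (rows), with filled circles for called and open circles for uncalled values and a black tick for the median log2FC of the detected miRs under that processing. The values stay above 0 in every row, the lowest being 0.15 for miR-29c-3p with array brightness as a covariate, and the open circles lie in the rows for the 75th percentile of all miRs, the slide blocks, the fit without slide 1 and the brightness covariate.

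With Givinostat present, the cytokine difference at 24 h had the same sign for each member and none was called. In 24h_Giv_Ctrl the log2 signal of miR-29b-3p was 9.43, 9.87 and 9.93 and in 24h_Giv_Cyt it was 10.21, 9.98 and 10.31. For miR-29a-3p the values were 9.24, 9.65 and 9.65 and then 9.80, 9.70 and 9.87. For miR-29c-3p they were 8.29, 8.65 and 8.68 and then 8.88, 8.88 and 8.91. Within each member the groups did not overlap, but replicate 1 of 24h_Giv_Ctrl lay well below the other 2 arrays. The log2FC was 0.42 for miR-29b-3p (95% confidence interval 0.088 to 0.76), 0.28 for miR-29a-3p (-0.036 to 0.59) and 0.35 for miR-29c-3p (-0.040 to 0.74), with adjusted p between 0.289 and 0.463 (limma). Of the 3 members 0 were called, miR-29b-3p alone reached an unadjusted p below 0.05, and 4 of all 758 miRs (0.528%) were called. In 63 miRs (8.31%) all 24h_Giv_Cyt arrays lay above all 24h_Giv_Ctrl arrays.

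These Givinostat groups shared slides 3 and 4. On slide 3, 1 array with cytokines lay above 2 without by 0.22 for miR-29a-3p, 0.41 for miR-29b-3p and 0.24 for miR-29c-3p. On slide 4, 2 arrays with cytokines lay above 1 without by 0.51, 0.67 and 0.59. The same 2 arrays lay above the 3 arrays of 24h_Ctrl on slide 4 by 0.54, 0.68 and 0.49, which is a cytokine difference within a slide, though one in which the groups also differ in Givinostat. The 24h_Giv_Ctrl array on that slide differed from those 3 arrays by 0.027, 0.019 and -0.095. It was replicate 1, which lay well below the rest of its group, and the differences of 0.51, 0.67 and 0.59 also rest on it. Brightness differed within slide 4 too: 571 and 542 in 24h_Giv_Cyt, 303 on this 24h_Giv_Ctrl array and 271 to 347 in 24h_Ctrl. The part of brightness in these differences within a slide was not tested.

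Averaged over the arms without and with Givinostat, which sets 6 arrays with cytokines against 6 without, the log2FC at 24 h was 0.52 for miR-29a-3p (SE 0.11, adjusted p = 0.00432), 0.73 for miR-29b-3p (SE 0.11, adjusted p = 0.000431) and 0.53 for miR-29c-3p (SE 0.13, adjusted p = 0.0160), all called by limma. Of the 758 miRs, 32 (4.22%) were called in this average and 16 (2.11%) were called and higher, and the members were at places 4, 1 and 3 among the 125 miRs detected on all arrays of the 4 groups. With slide as a fixed block, miR-29b-3p remained called (0.87) and miR-29a-3p (0.60) and miR-29c-3p (0.59) were not, while 9 of 758 miRs were called. With array brightness as a covariate the values were 0.23, 0.45 and 0.15 and none was called. In that fit 21 of 758 miRs were called, 3 higher and 18 lower.

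**Figure D3:**
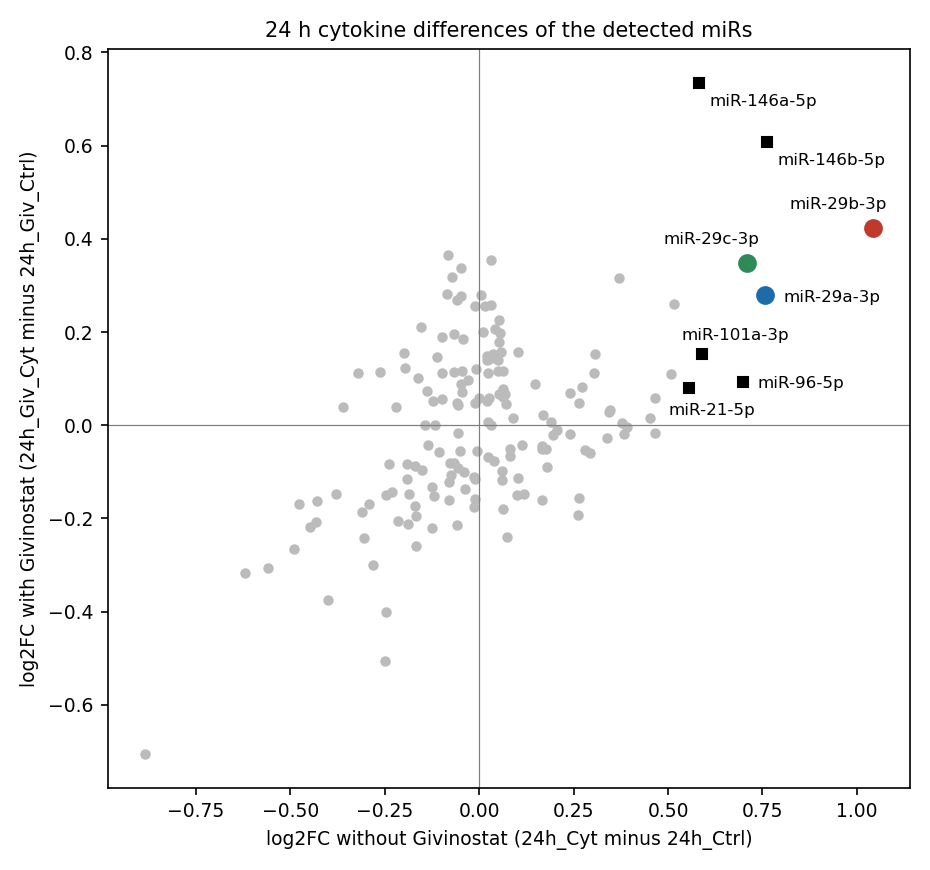
Log2FC of 24h_Cyt against 24h_Ctrl (horizontal axis) and of 24h_Giv_Cyt against 24h_Giv_Ctrl (vertical axis) for the 168 detected miRs, 1 point per miR, with the members in colour and cytokine-responsive or most similar miRs as black squares, the fitted value being shown also for miRs not detected in a control group. The 3 members lie at the right edge, at 0.71 to 1.04 without Givinostat and 0.28 to 0.42 with it.

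Whether Givinostat changed the cytokine difference was asked directly. All 24h_Giv_Cyt arrays lay below all 24h_Cyt arrays for each member, which was so for 78 of 758 miRs (10.3%). The log2FC of 24h_Giv_Cyt against 24h_Cyt was -0.18 for miR-29a-3p (95% confidence interval -0.49 to 0.14), -0.29 for miR-29b-3p (-0.62 to 0.050) and -0.21 for miR-29c-3p (-0.59 to 0.18), with an adjusted p of 0.961 for each (limma). None of the 3 members was called, none had an unadjusted p below 0.05, and 1 of the 758 miRs (0.132%) was called. The difference between the cytokine effects with and without Givinostat was -0.48, -0.62 and -0.36 for miR-29a-3p, miR-29b-3p and miR-29c-3p (adjusted p = 0.857, 0.786 and 0.953, limma). In this test no call was made among 758 miRs (0 miRs, 0%), with 39 at an unadjusted p below 0.05, including 2 members. For this difference between effects, limma with a pooled correlation over the spots of an array, in place of array means, called miR-29b-3p and miR-29c-3p. In 24h_Giv_Cyt against 24h_Cyt the pooled correlation called miR-29c-3p alone of the members. The array brightness of 24h_Giv_Cyt lay below that of 24h_Cyt. These groups also shared no slide: 24h_Cyt lay on slides 1 and 2 and 24h_Giv_Cyt on slides 3 and 4. A direct comparison of their arrays therefore cannot separate Givinostat from slide.

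Givinostat without cytokines gave log2FCs at 24 h from 0.16 to 0.33, with an adjusted p of 0.991 for each member (limma). Of the 758 miRs 0 (0%) were called and 33 had an unadjusted p below 0.05, none of them a member. All 24h_Ctrl arrays lay on slide 4, with 1 array of 24h_Giv_Ctrl, while the rest of 24h_Giv_Ctrl lay on slide 3. Within slide 4 the differences were 0.027, 0.019 and -0.095 for miR-29a-3p, miR-29b-3p and miR-29c-3p. The part of slide in this comparison was not tested.

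At 6 h no member was called in any comparison. In 6h_Ctrl the log2 signal of miR-29b-3p was 9.69, 9.91 and 9.77 and in 6h_Cyt it was 10.07, 9.67 and 9.91. For miR-29a-3p the values were 9.28, 9.55 and 9.41 and then 9.72, 9.33 and 9.62, and for miR-29c-3p 8.40, 8.72 and 8.53 and then 8.88, 8.42 and 8.74. The groups overlapped for each member. The log2FCs were 0.14, 0.089 and 0.13 for miR-29a-3p, miR-29b-3p and miR-29c-3p (SE 0.15 to 0.18, adjusted p = 0.999 for each, limma). On slide 2, which held all 6h_Ctrl arrays and 2 of the 6h_Cyt arrays, the differences were 0.063, -0.0055 and 0.028. For 0 of 758 miRs (0%) was there a call, with 30 below an unadjusted p of 0.05.

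With Givinostat at 6 h, the log2 signal of miR-29b-3p was 10.26, 9.83 and 9.89 in 6h_Giv_Ctrl and 9.83, 9.98 and 9.44 in 6h_Giv_Cyt. For miR-29c-3p it was 8.97, 8.35 and 8.35 and then 8.61, 8.80 and 8.0004. For miR-29a-3p it was 9.75, 9.34 and 9.31 and then 9.49, 9.66 and 9.099. All 6h_Giv_Cyt arrays lay on slide 3, which held no array of 6h_Giv_Ctrl or 6h_Cyt. Replicate 1 of 6h_Giv_Ctrl, the slide 1 array, was high for all 3 members and replicate 3 of 6h_Giv_Cyt was low. The log2FCs ran from -0.24 to -0.049 (adjusted p = 0.997 for each member, limma), with a median over the members of -0.085. That median was 0.092 without the first of these arrays and 0.11 without the second. The log2FCs of 6h_Giv_Cyt against 6h_Cyt ran from -0.21 to -0.13 and those of 6h_Giv_Ctrl against 6h_Ctrl from 0.0020 to 0.20, with the median of the first at 0.024 without replicate 3 of 6h_Giv_Cyt and that of the second at -0.088 without replicate 1 of 6h_Giv_Ctrl. In each of these 3 comparisons 0 of 758 miRs (0%) were called, with 27, 24 and 34 at an unadjusted p below 0.05 and no member among them. The pooled correlation over spots called miR-29c-3p in 6h_Giv_Cyt against 6h_Cyt.

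**Figure D4:**
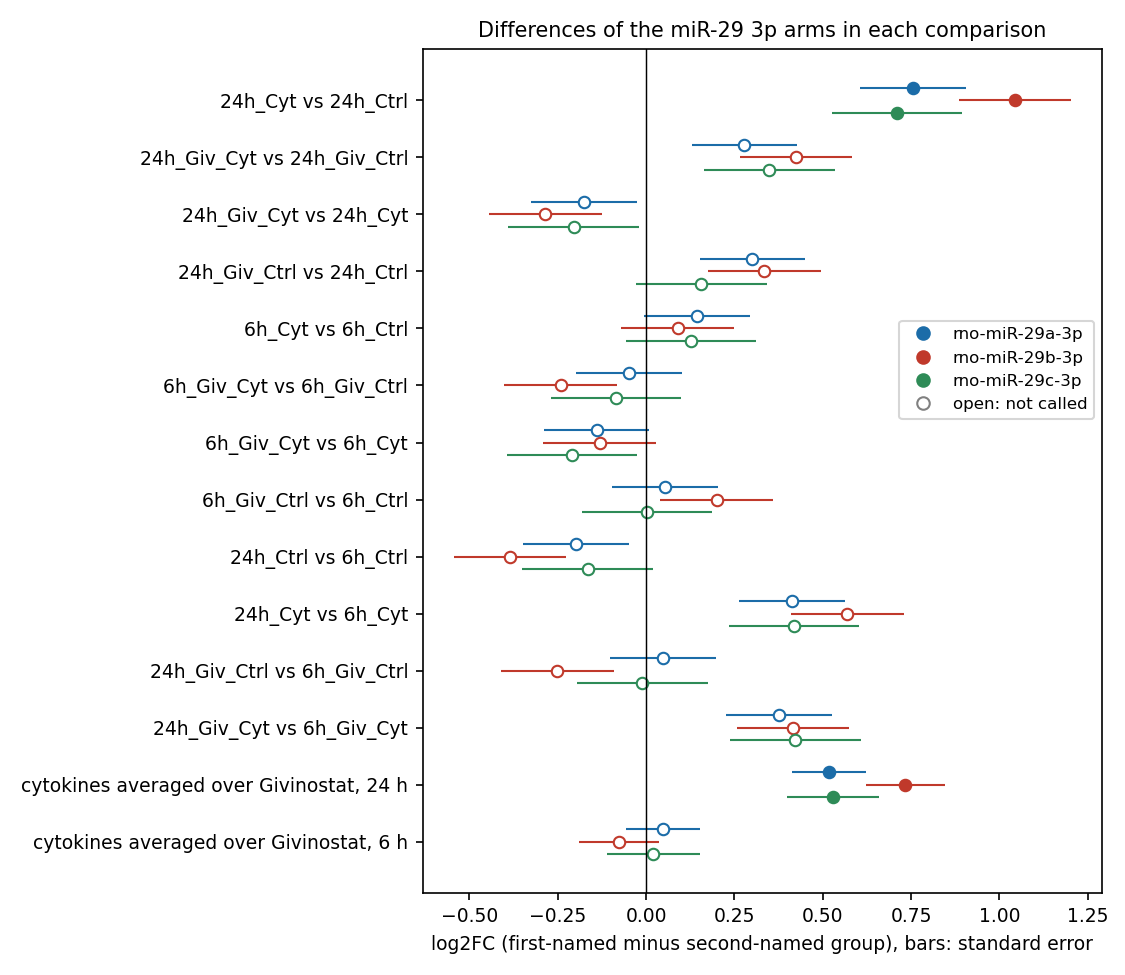
Log2FC (horizontal axis) of each member in the 12 comparisons between groups and the 2 averages over Givinostat (rows), with bars for the standard error, filled circles for called values and open circles for uncalled values. The filled circles lie in 2 rows, 24h_Cyt against 24h_Ctrl and the 24 h average, and the 6 h rows lie between -0.24 and 0.20.

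Averaged over the arms, the cytokine difference at 6 h was 0.048, -0.077 and 0.021 for miR-29a-3p, miR-29b-3p and miR-29c-3p (adjusted p = 0.997 for each, limma), with 0 of 758 miRs (0%) called and 32 at an unadjusted p below 0.05. The difference between the cytokine effects with and without Givinostat at 6 h ran from -0.33 to -0.19 (adjusted p = 0.997 for each), with 0 of 758 (0%) called and 12 at an unadjusted p below 0.05. Tested directly, the cytokine difference without Givinostat was larger at 24 h than at 6 h by 0.61 for miR-29a-3p, 0.95 for miR-29b-3p and 0.58 for miR-29c-3p, and these terms did not pass the threshold (adjusted p = 0.340, 0.0704 and 0.471, limma). The unadjusted p was below 0.05 for all 3, and calls were made for 4 of the 758 miRs (0.528%). The 6h_Ctrl arrays lay on slide 2 and the 24h_Ctrl arrays on slide 4, so these terms also hold any difference between slides. Leaving out any 1 of 4 arrays brought miR-29b-3p past the threshold: replicate 3 of 24h_Ctrl (1.07), or replicate 1 of 24h_Giv_Ctrl, replicate 1 of 6h_Giv_Ctrl or replicate 3 of 6h_Giv_Cyt (0.95 for each). With Givinostat the terms were 0.33, 0.67 and 0.43 (adjusted p = 0.934, 0.365 and 0.929), where 6 of 758 (0.792%) were called.

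Between the times, the signals in cytokine-treated cells lay higher at 24 h than at 6 h, but no member was called. The log2FC of 24h_Cyt against 6h_Cyt was 0.41, 0.57 and 0.42 for miR-29a-3p, miR-29b-3p and miR-29c-3p (adjusted p = 0.190, 0.100 and 0.298, limma), and 0 of 3 members were called, while all 3 reached an unadjusted p below 0.05. There were 6 calls (0.792%) among all 758 miRs. All 24h_Cyt arrays lay above all 6h_Cyt arrays for each member, as for 66 of 758 miRs (8.71%), and on slide 2 the single 24h_Cyt array lay above the 2 arrays of 6h_Cyt by 0.46, 0.68 and 0.45. Brightness was 596 on that 24h_Cyt array and 387 and 413 on those 6h_Cyt arrays, and its part in these differences was not tested. With Givinostat, 24h_Giv_Cyt exceeded 6h_Giv_Cyt by 0.38, 0.42 and 0.42 (adjusted p = 0.386, 0.373 and 0.472), where 3 of 758 (0.396%) were called and 0 members were. The groups did not overlap for miR-29a-3p and miR-29c-3p, as for 37 of 758 miRs (4.88%), and overlapped for miR-29b-3p.

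Without cytokines no member was called between the times either. All 24h_Ctrl arrays lay on slide 4 and all 6h_Ctrl arrays on slide 2, and 24h_Giv_Ctrl and 6h_Giv_Ctrl shared no slide. A direct comparison of these arrays cannot separate time from slide. The log2FC of 24h_Ctrl against 6h_Ctrl was -0.20, -0.39 and -0.17 (adjusted p from 0.828 to 0.994), with 0 of 758 miRs (0%) called and 39 at an unadjusted p below 0.05, miR-29b-3p among them. That of 24h_Giv_Ctrl against 6h_Giv_Ctrl was 0.048, -0.25 and -0.011 (adjusted p above 0.999 for each), with 0 of 758 (0%) called and 30 at an unadjusted p below 0.05. The median of the second comparison over the members was -0.011, and 0.19 without replicate 1 of 6h_Giv_Ctrl.

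In the order of the group means, 24h_Ctrl was lowest and 24h_Giv_Cyt and 24h_Cyt were highest for all 3 members. For miR-29a-3p the means ran from 9.21 ± 0.17 (SD, n = 3) in 24h_Ctrl through 9.41 in 6h_Ctrl, 9.42 in 6h_Giv_Cyt, 9.47 in 6h_Giv_Ctrl, 9.51 in 24h_Giv_Ctrl and 9.56 in 6h_Cyt to 9.79 ± 0.087 in 24h_Giv_Cyt and 9.97 ± 0.031 in 24h_Cyt. For miR-29b-3p they ran from 9.41 ± 0.20 in 24h_Ctrl through 9.74 in 24h_Giv_Ctrl, 9.75 in 6h_Giv_Cyt, 9.79 in 6h_Ctrl, 9.88 in 6h_Cyt and 9.99 in 6h_Giv_Ctrl to 10.17 ± 0.17 in 24h_Giv_Cyt and 10.45 ± 0.069 in 24h_Cyt. For miR-29c-3p they ran from 8.39 ± 0.12 in 24h_Ctrl through 8.47 in 6h_Giv_Cyt, 8.54 in 24h_Giv_Ctrl, 8.55 in 6h_Ctrl, 8.55 in 6h_Giv_Ctrl and 8.68 in 6h_Cyt to 8.89 ± 0.018 in 24h_Giv_Cyt and 9.097 ± 0.061 in 24h_Cyt. Neighbours in these orders overlapped, except 24h_Cyt above 24h_Giv_Cyt for each member and, for miR-29c-3p, 24h_Giv_Cyt above 6h_Cyt, a separation seen in 60 of 758 miRs (7.92%).

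The cytokine difference at 24 h was smaller for miR-29a-3p than for miR-29b-3p. Levels of different probes are not comparable, so the difference between members on an array is given for its change alone. The signal of miR-29a-3p minus that of miR-29b-3p on the same array was -0.19 ± 0.036 (SD, n = 3) in 24h_Ctrl and -0.48 ± 0.090 in 24h_Cyt, and -0.23 ± 0.046 in 24h_Giv_Ctrl and -0.37 ± 0.086 in 24h_Giv_Cyt. At 6 h it was -0.38 ± 0.026 in 6h_Ctrl and -0.32 ± 0.032 in 6h_Cyt, and -0.53 ± 0.047 in 6h_Giv_Ctrl and -0.33 ± 0.014 in 6h_Giv_Cyt. The mean gap was wider with cytokines at 24 h and narrower with cytokines at 6 h, a contrast between times that was not tested, and it was wider in 6h_Giv_Ctrl than in 24h_Cyt. Averaged over the arms, the effect on miR-29a-3p minus that on miR-29b-3p was -0.22 on the log2 scale (two-sided exact permutation test within the arms, 400 arrangements, p = 0.01, adjusted p = 0.03 over 3 pairs). The effects on miR-29a-3p and miR-29c-3p differed by -0.012 (exact p = 0.735, adjusted p = 0.735), and those on miR-29b-3p and miR-29c-3p by 0.20 (exact p = 0.035, adjusted p = 0.0525). The smallest p that 400 arrangements allow is 0.005. The 24h_Cyt and 24h_Ctrl arrays shared no slide and differed in brightness, so in that arm the permutation cannot separate cytokines from slide or brightness. The part of slide and brightness in the differences between members was not tested. With the scanner software's background-subtracted signal instead, the 3 differences were -0.17, -0.12 and 0.046 (adjusted p = 0.0075, 0.0075 and 0.07, exact permutation test), so that miR-29a-3p then differed from miR-29c-3p as well.

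Over the 24 arrays the members followed each other. Pearson's r was 0.951 between miR-29a-3p and miR-29b-3p, 0.965 between miR-29a-3p and miR-29c-3p and 0.902 between miR-29b-3p and miR-29c-3p, and with the group means removed it was 0.965, 0.955 and 0.885. These are descriptions, since the arrays share slides and brightness and the probes of miR-29a-3p and miR-29c-3p differ by 1 base. The median r of a member with the 165 other detected miRs was -0.064, -0.068 and -0.015, and with the group means removed 0.44, 0.36 and 0.53.

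**Figure D5:**
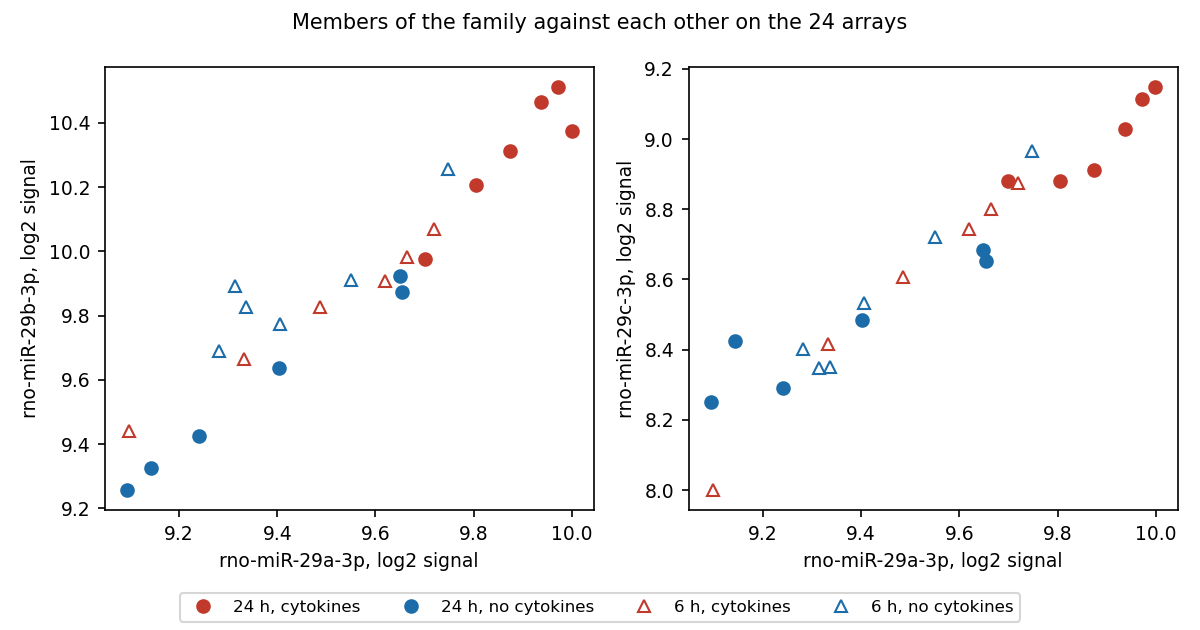
Log2 signal of miR-29b-3p (left, vertical axis) and of miR-29c-3p (right, vertical axis) against that of miR-29a-3p (horizontal axis), with 1 point per array, filled circles for 24 h, open triangles for 6 h, red for arrays with cytokines and blue for arrays without. The points lie along a rising line in both panels (r = 0.951 and 0.965), with the 24 h arrays with cytokines at the upper end.

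The miR outside the family most like the members was miR-96-5p, with r of 0.937 to miR-29a-3p and 0.925 to miR-29b-3p over the 24 arrays. For miR-29c-3p it was miR-101a-3p (0.910), followed by miR-96-5p (0.909) and miR-21-5p (0.898). miR-101a-3p was detected on 9 arrays and miR-96-5p on 24, so each r of miR-101a-3p rests mostly on arrays where it was not detected. The next most similar to miR-29a-3p were miR-101a-3p (0.887) and miR-204-5p (0.882), and to miR-29b-3p miR-101a-3p and miR-153-3p (0.886 for each). With the background-subtracted signal the miR most like each member was miR-101b-3p (0.964, 0.983 and 0.970). These miRs were selected by their likeness to the members on the same arrays, so their own cytokine differences are descriptions and no separate support. In 24h_Cyt against 24h_Ctrl the log2FC was 0.70 for miR-96-5p (adjusted p = 0.00919) and 0.47 for miR-153-3p (adjusted p = 0.0178, limma). miR-101a-3p was detected on no 24h_Ctrl array and was at least 1.43-fold higher in 24h_Cyt (adjusted p = 0.0167, limma). The log2FC of miR-204-5p was 0.24 (adjusted p = 0.0615). For a miR detected on no array of a group, the bound sets the brighter group against the lowest signal of a detected miR on each array of the dimmer group.

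The other strands of the same hairpins, which are usually discarded after processing, were mostly not detected. miR-29a-5p, miR-29b-1-5p and miR-29b-5p were well above background on 0 of 24 arrays. miR-29c-5p was detected on 6 arrays, including all 3 of 24h_Cyt and none of 24h_Ctrl, and its log2 signal was 6.00 and 5.92 in these groups (adjusted p = 0.520, limma). Of the 4 strands 0 were called in 24h_Cyt against 24h_Ctrl. The array also carried miR-3556a, miR-3587 and miR-3556b, which are complementary to miR-29a-3p, miR-29b-3p and miR-29c-3p over their whole 18, 21 and 20 bases. These were chosen after the files had been seen. They were detected on 0 of 24 arrays, with log2 signals from 5.35 to 5.48 on all arrays, and 0 of 3 were called.

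Among 5 miRs known to respond to cytokines in β-cells, 3 were called higher in 24h_Cyt and 0 lower, beside 20 of all 758 miRs (2.64%) called higher. The median log2FC of these 5 was 0.56, where that of all 758 miRs was -0.011. The list was chosen with earlier results of these arrays known, so its direction is not independent evidence. miR-146b-5p rose by 0.76 (adjusted p = 0.0167) and miR-21-5p by 0.56 (adjusted p = 0.0357, limma). miR-146a-5p, an inhibitor of IL-1 receptor signaling, was detected in 24h_Cyt and 24h_Giv_Cyt alone and was at least 1.05-fold higher in 24h_Cyt than in 24h_Ctrl and at least 1.18-fold higher in 24h_Giv_Cyt than in 24h_Giv_Ctrl (adjusted p = 4.91e-10 and 9.47e-12). miR-34a-5p and miR-155-5p were detected on 0 arrays. With Givinostat, 1 of these 5 miRs was called higher with cytokines, miR-146a-5p, beside 4 of 758 (0.528%) called in either direction. The log2FC of miR-146b-5p was 0.61 and that of miR-21-5p 0.080 (adjusted p = 0.144 and 0.805). Of the 4 reference miRs, miR-103-3p had a log2FC of -0.19 in 24h_Cyt against 24h_Ctrl (adjusted p = 0.306), and let-7c-5p was the one that was called.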

How the data were processed

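For each array the authors deposited the scanner's table of linear, unnormalized intensity per spot with other columns of marks, and they deposited 1 table of log2 values per miR. The headers name Feature Extraction 10.7.3.1 by Agilent, and the submitters' processing notes name 9.1. The median foreground intensity was used without background correction. The 715 control spots were removed, log2 values were quantile-normalized over 12128 spots, and the 16 spots of a miR were averaged. limma 3.58.1 (R 4.3.3) was fitted to all 24 arrays with 8 group means and 16 residual degrees of freedom. It tested 12 comparisons, 2 averages and 4 interactions, these last without a log2FC threshold. The fit was also run on simulated data with independent noise and no slide or brightness differences, so that run cannot show how these act. The study's own test pools the spots of an array as correlated values, and array means were used in its place because these spots share 1 RNA. Figures used matplotlib 3.10.9 (Python 3.11.15).

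The named miRs were the 3 members, the other strands of their hairpins, 5 cytokine-responsive miRs, 4 reference miRs, cell type markers and, per member, the 3 detected miRs with the highest r. The members and lists were chosen with earlier results of these data known. Precision is limited by 3 arrays per group.

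Alternatives changed the probe, summary of spots, signal, background, normalization, test, slide or replicate block, arrays and threshold. Where low values were set to a floor (4.44 for the background-subtracted signal), 381 to 452 miRs without variation were left out of the fit. The replicate numbers come from the sample titles. Deviations of same-numbered arrays from their group means correlated above 0.1 in 18 of 36 pairs, and in all 3 pairs of 2 comparisons, among them 24h_Cyt vs 24h_Ctrl.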

Additional observations from a re-analysis of the deposited data

How the results depend on the processing

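In 24h_Cyt vs 24h_Ctrl, all 3 members kept their sign in 22 alternatives and in 24 fits that left out 1 array each. Where the array left out lay in neither group, the log2FC could not change. Nor could it with the pooled correlation, detected miRs alone, the compared groups alone, the replicate block or no log2FC threshold. Scaled to the 75th percentile of all miRs, which fell on undetected miRs on 22 of 24 arrays, the log2FC was 0.67, 0.90 and 0.81 for miR-29a-3p, miR-29b-3p and miR-29c-3p. With slide as a fixed block it was 0.84, 1.20 and 0.77, without slide 1 0.72, 1.06 and 0.64, and with array brightness 0.34, 0.62 and 0.15. In these settings 0 members were called, and with slide as a random block miR-29c-3p was not (0.70, adjusted p = 0.0507). miR-29c-3p also lost its call without replicate 1 or 2 of 24h_Ctrl or of 24h_Cyt, and ranged from 0.64 to 0.76 over the arrays left out, as miR-29a-3p did from 0.70 to 0.85 and miR-29b-3p from 0.97 to 1.16. The count over 758 miRs was 14 to 43 with 1 array left out (14 without 24h_Ctrl replicate 2, 16 without 24h_Cyt replicate 1 or 2), and over the other settings from 1 (fixed slide block) to 551 (relative to miR-103-3p and miR-423, where 482 were lower).

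The 24 h average was 0.21, 0.38 and 0.33 with the 75th percentile of all miRs and 0.23, 0.45 and 0.15 with brightness, with 0 members called. With slide as a fixed block (0.60 and 0.59 for miR-29a-3p and miR-29c-3p) or without slide 1 (0.50 and 0.50), 1 member was called. All miRs called numbered 19 to 39 with 1 array left out and 9 to 484 over the other settings.

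In 24h_Giv_Cyt vs 24h_Giv_Ctrl the members reversed with the 75th percentile of all miRs (-0.26, -0.15 and -0.15). Without normalization miR-29b-3p and miR-29c-3p (2 members) were called (0.80 and 0.76), where 323 of 758 miRs were called, all of them higher. The pooled correlation called the same 2 members (0.42 and 0.35), where 43 of 758 miRs were called. Over all settings the miRs called numbered 1 to 323. In 24h_Giv_Cyt vs 24h_Cyt miR-29c-3p was called by the pooled correlation (-0.21, 1 member) and was 0.026 with brightness. In the interaction with Givinostat at 24 h that test called 2 members (-0.62 and -0.36 for miR-29b-3p and miR-29c-3p), and 1 in 6h_Giv_Cyt vs 6h_Cyt, 1 in 24h_Giv_Cyt vs 6h_Giv_Cyt and 2 in the interaction with time with Givinostat, where miR-29a-3p was -0.033 with the 75th percentile of all miRs.

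In 24h_Cyt vs 6h_Cyt, 3 members were called without normalization and relative to either reference, 2 by the pooled correlation and 1 with the shorter probe, and miR-29c-3p was -0.0094 with brightness. In the interaction with time without Givinostat, 3 were called without normalization and relative to miR-103-3p and miR-423, 2 by the pooled correlation, 1 with the shorter probe, the 75th percentile of detected miRs, detected miRs alone or the compared groups alone, and 0 to 1 with 1 array left out.

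Between members, miR-29a-3p minus miR-29c-3p was -0.048 without normalization and -0.12 with the background-subtracted signal, both past the threshold, and 0.040 with the longer probes. miR-29b-3p minus miR-29c-3p was 0.13 without normalization and 0.23 with the longer probes, both past the threshold. With the shorter probes it was 0.17 and did not pass (adjusted p = 0.165, exact permutation test), at 0.40 without Givinostat and -0.052 with it. The probe and background-subtracted settings were chosen after seeing the data.

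With the replicate number as a block, the log2FCs of 24h_Cyt vs 24h_Ctrl were 0.76, 1.04 and 0.71 (adjusted p = 0.0109, 0.0017 and 0.0389), and the block changed no call of a member. The causes of these changes were not tested. The miRs left out of a fit for want of variation numbered 381, 389 and 452 in the 3 settings with a floor and 1 relative to let-7c-5p.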
